A study of Mus musculus with 33 samples.

Results

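Input chromatin, the sheared DNA of a cell population sequenced without an antibody, was compared between cells given 3 transcription factors and cells given a single factor. All 9 input libraries of the series were taken by their labels, out of 33 libraries in all: 6 from cells with Gata4, Mef2c and Tbx5 together, numbered 1 to 6, and 3 from cells with 1 virus each, Gata4, Mef2c or Tbx5. The other 24 libraries are chromatin immunoprecipitations (ChIP) of the same factors. Every cell population came from a fibroblast line of the neonatal mouse heart, strain Cd-1, with the alpha-MHC-GFP reporter and an immortalising large T antigen that Cre can remove. All were infected with retroviruses that carry the factors, cultured with sb431542 and xav939, inhibitors of Tgfβ and Wnt signalling, and harvested unsorted at day 2 of reprogramming. The groups therefore share the line, its T antigen, the inhibitors and the time, and differ by label in the viruses alone. Unsorted cells include any that took up no virus. Each single-factor input is 1 library, so the spread within that group of 3 also contains the difference between viruses. Genomic DNA holds no expression, so the fibroblast label could not be checked here against marker genes.

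Input reads follow the amount of DNA at each place in the genome, and are also shaped by shearing, by base composition and by how uniquely reads align. A chromosome held in more copies per cell gives more input reads. Large T antigen binds and inactivates p53 and the retinoblastoma proteins, and lines immortalised with it often gain and lose chromosomes in culture, so that cells of a single line can differ in their chromosome content.

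Counts covered 30815 regions of 201 to 1484 bp on the mm9 build, of which 30199 lie on the 19 autosomes, 611 on X and 5 on Y. Input totals were 165517 to 301678 counts with 3 factors, and 127871, 125181 and 97474 with Gata4, Mef2c and Tbx5 alone. The median autosomal region held 5 to 9 counts in a three-factor input and 3 or 4 in a single-factor input. Single regions were thus measured coarsely, and whole autosomes, which sum many regions, far more finely. Intervals given below are 95% intervals for counting error alone.

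The three-factor inputs fell into 2 sets, 1, 3 and 6 against 2, 4 and 5, and this was visible before any comparison with the single-factor cells, with input 4 between them. Over the regions, a chi-square test found that inputs 1 and 3 agree within sampling noise (p = 0.471), as do 2 and 4 (p = 0.277), 2 and 5 (p = 0.713) and 4 and 5 (p = 0.963). The same chi-square test was also passed narrowly by input 3 against input 4, of different sets (p = 0.0522). Input 1 against input 4 did not pass (ratio per degree of freedom 1.07), so libraries were joined only where every pair among them agreed. Each such set was summed and counted once, which left 3 three-factor samples (1 with 3, 2 with 4 and 5, and 6) against 3 single-factor samples. Over the 19 autosome totals, which are more precise, inputs 1 and 3 again agreed (chi-square per degree of freedom 0.99, p = 0.468). Inputs 2, 4 and 5 did not: the ratio was 8.6 for 2 against 4, 5.98 for 4 against 5 and 2.42 for 2 against 5. Inputs of different sets lay much further apart, at 33.6 to 40.9 for 1, 3 and 6 against 2 and 5, and 12.7 to 15.9 against 4, so input 4 stood between the sets. Within its own set, input 6 differed from inputs 1 and 3 over the regions (chi-square test, p = 1.9e-06 and 3.13e-05). Over the autosome totals its ratios to them were 2.67 and 2.38. On 16 of the 19 autosomes every input of one set lay above every input of the other. The sets were drawn from the values of these same libraries, so this count describes the split and cannot test it. The single-factor inputs of Gata4 and Mef2c agreed over the autosomes, with a ratio of 0.98, and the Tbx5 input differed from both, at 8.36 and 7.03. Three-factor and single-factor inputs differed in every pair, at 16.7 to 65.3. The ratios were 16.7 to 25.6 for inputs 1, 3 and 6, 34.3 to 39 for input 4 and 55.6 to 65.3 for 2 and 5. Inputs 1, 3 and 6 thus had smaller ratios to the single-factor inputs than to three-factor inputs 2 and 5. The ratio also rises with depth, and the single-factor inputs are shallower, so these ratios are not distances on a common scale.

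Chromosome 15 took a larger share of the input reads with 3 factors than with a single factor. It held 6.11% of the autosomal counts in the lowest, 6.36% in the median and 6.53% in the highest of the 6 three-factor inputs. With Gata4, Mef2c and Tbx5 alone it held 5.35, 5.32 and 5.36%. The groups did not overlap, and the single-factor libraries were within 0.05 percentage points of one another. Over samples the shares were 6.28 ± 0.207% and 5.34 ± 0.023% (SD, n = 3 and 3), a log2 fold change of 0.23 ± 0.033 (SE; edgeR quasi-likelihood test, adjusted p = 9.14e-09). Both sets showed it, with log2 ratios to the single-factor inputs of 0.19 to 0.22 in inputs 1, 3 and 6 and 0.28 to 0.29 in 2, 4 and 5. All 16 alternatives tried kept this call, with adjusted p from 9.68e-21 to 0.00471.

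Chromosomes 12, 13 and 5 took smaller shares with 3 factors. Chromosome 12 held 3.39, 3.55 and 3.71% of counts in the lowest, median and highest three-factor input, and 4.13, 4.08 and 4.18% with Gata4, Mef2c and Tbx5 alone. The 2 groups stayed apart in every library, and the log2 fold change was -0.20 ± 0.047 (edgeR, adjusted p = 0.00049), a call that all 16 alternatives kept. Chromosome 13 held 3.91, 4.27 and 4.4% in the lowest, median and highest three-factor input, against 4.95, 4.92 and 4.65% in the single-factor inputs. Its log2 fold change was -0.19 ± 0.057 (edgeR, adjusted p = 0.00806), and 13 of 16 alternatives kept the call. Chromosome 5 changed least of the 4, from 6.66 ± 0.129% with a single factor to 6.15 ± 0.0743% with 3 (SD, n = 3 and 3; log2 fold change -0.11 ± 0.029, edgeR adjusted p = 0.00099). Here 11 of 16 alternatives kept it, and the 2 sets of three-factor inputs overlapped. In all, 4 of 19 autosomes were called (21.1%), 1 higher (5.26%) and 3 lower (15.8%). The shares of a library add up to 100%, so a rise on some autosomes lowers the shares of the others. Under TMM scaling, which centres on the typical autosome, 7 were called, 4 higher and 3 lower.

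Chromosome 8 divided the three-factor inputs. It held 5.95, 6.06 and 5.89% of counts in inputs 1, 3 and 6, and 7.24, 6.59 and 6.99% in inputs 2, 4 and 5. With Gata4, Mef2c and Tbx5 alone it held 5.43, 5.49 and 5.35%. Every three-factor input lay above every single-factor input, and the 2 three-factor sets did not overlap each other. The log2 fold change was 0.22 ± 0.078, which did not pass the test (edgeR, adjusted p = 0.127). It did under 12 of the 16 alternatives, whose adjusted p ran from 1.54e-20 to 0.275. Against the single-factor inputs, samples 1 with 3, 2 with 4 and 5, and 6 stood at 0.15, 0.36 and 0.12 on the log2 scale. With only 1, 3 and 6 on the three-factor side, 7 autosomes were called. That fit is the same as leaving out the sum of 2, 4 and 5, and it counts under both names among the 16 alternatives. The alternative with only 2, 4 and 5 has 1 summed three-factor sample and so no three-factor replicate.

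Without overlap between the 3 and 3 samples were 7 of 19 autosomes (36.8%): 8 and 15 higher, and 5, 9, 12, 13 and 17 lower. For each of these the exact permutation test over samples gave p = 0.1, two-sided, the smallest that 3 against 3 samples allow. Taking the 9 libraries separately, chromosome 17 dropped out and 6 remained (31.6%). Chromosomes 9 and 17 stood at -0.11 ± 0.054 and -0.09 ± 0.051 and were not called (edgeR, adjusted p = 0.12 and 0.155). The other 12 autosomes overlapped, and their log2 fold changes ran from -0.08 on chromosome 1 to 0.08 on chromosome 10. Fold changes of chromosomes 3, 4, 6, 7, 16, 18 and 19, all near 0, changed sign under at least 1 alternative.

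**Figure D1:**
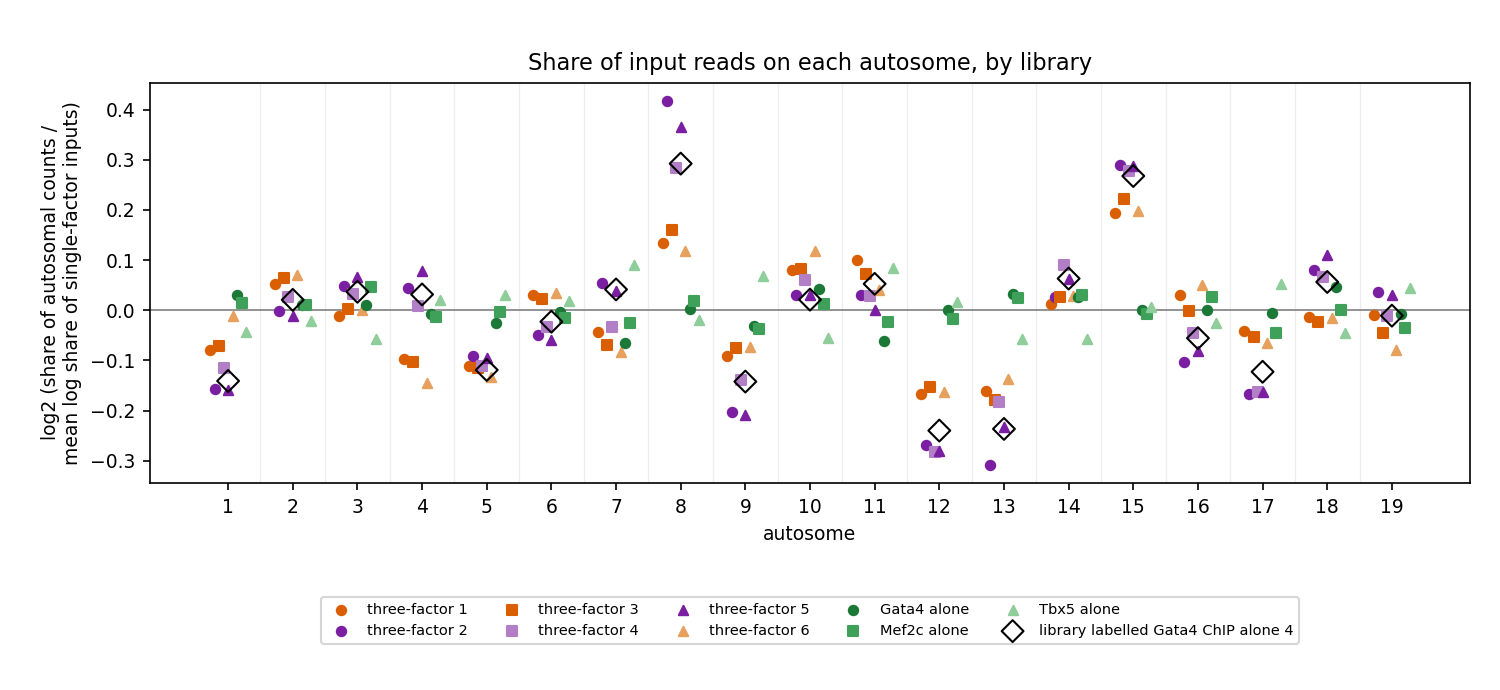
Share of autosomal counts on each of the 19 autosomes (horizontal axis), as the log2 ratio to the mean log share of the 3 single-factor inputs (vertical axis), 1 point per library. Orange points are three-factor inputs 1, 3 and 6, purple points 2, 4 and 5, and green points single-factor inputs; open diamonds are a ChIP library described further on. On chromosome 8 the orange points lie at 0.12 to 0.16 and the purple ones at 0.28 to 0.42, and on chromosomes 12 and 15 no three-factor input reaches a single-factor input.

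Counts per base of region put these shares on a common scale, with 1 for the middle autosome of a library. Chromosome 15 stood at 1.3 ± 0.0099 with 3 factors and 1.09 ± 0.014 with a single factor (SD, n = 3 and 3). Chromosome 8 stood at 1.19 ± 0.068 and 1.01 ± 0.005, and chromosome 12 at 0.872 ± 0.071 and 0.979 ± 0.02. The single-factor inputs thus held chromosomes 8 and 12 near the middle level, and the three-factor inputs did not. Chromosome 7 was the lowest autosome in all 9 libraries (0.72 to 0.81), and chromosome 6 the highest in the 3 single-factor inputs (1.11 to 1.15). Chromosome 15 was the highest in 5 of the 6 three-factor inputs, and chromosome 8 in input 2. Groups did not overlap on 6 of 19 autosomes (31.6%) by this level. For scale, a step from 2 to 3 copies in every cell would be 0.58 in log2, and the differences above are smaller. Composition and the choice of regions also set these levels, and their part was not tested. The X chromosome stood at 0.53 to 0.57 of the middle autosome with 3 factors and 0.59 to 0.64 with a single factor, below the level of every autosome in every library.

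In the fold changes between the groups, chromosomes 8, 12 and 15 were shifted along their whole length, and chromosome 5 was not. All 11 bins of 10 Mb on chromosome 15 were higher with 3 factors (log2 fold changes 0.19 to 0.4), as were all 14 on chromosome 8 (0.16 to 0.33). All 13 bins of chromosome 12 were lower (-0.28 to -0.06), and on chromosome 13 10 of 12 were. On chromosome 5, 14 of 16 were lower, and the range was -0.29 to 0.25. Bins of a chromosome are not independent of one another. Of 257 bins, 5 were called (1.95%), 3 higher (1.17%) and 2 lower (0.778%). The higher ones all lie on chromosome 15, at 10 to 20, 50 to 60 and 60 to 70 Mb, with log2 fold changes of 0.35 ± 0.076, 0.24 ± 0.042 and 0.26 ± 0.055 (edgeR, adjusted p = 0.0462, 0.0255 and 0.0462). The lower ones were at 20 to 30 Mb of chromosome 5 (-0.29 ± 0.066) and 140 to 150 Mb of chromosome 4 (-0.32 ± 0.073), both with an adjusted p of 0.0462. No bin was called when any sample other than the Tbx5 alone input was left out, or without robust estimation of the spread, and 40 were called when that input was left out.

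Parts of chromosomes 2, 4 and 5 differed from their remainder. These stretches were picked after the values had been seen and carry no test. The end of chromosome 4, 120 to 160 Mb, stood at -0.37 to -0.23 in the 6 three-factor inputs, as the log2 ratio to the mean of the single-factor inputs, which themselves ran from -0.12 to 0.14. Its first 120 Mb stood between -0.05 and 0.2 in the three-factor inputs. The distal stretch was thus lower in both sets, while the proximal part was higher in 2, 4 and 5 (0.12 to 0.2) and not in 1, 3 and 6 (-0.05 to -0.02). The far part of chromosome 2, 140 to 190 Mb, ran from 0.11 to 0.26 with 3 factors and from -0.1 to 0.15 with a single factor, an overlap through the Tbx5 alone input. The first 120 Mb of chromosome 5 were lower in all 6 three-factor inputs, at -0.22 to -0.15. The next 10 Mb of chromosome 5 stood at -0.02 to 0.54 in them, against -0.1 to 0.19 with a single factor, and the last part, 130 to 160 Mb, at -0.12 to 0.08, against -0.15 to 0.21.

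**Figure D2:**
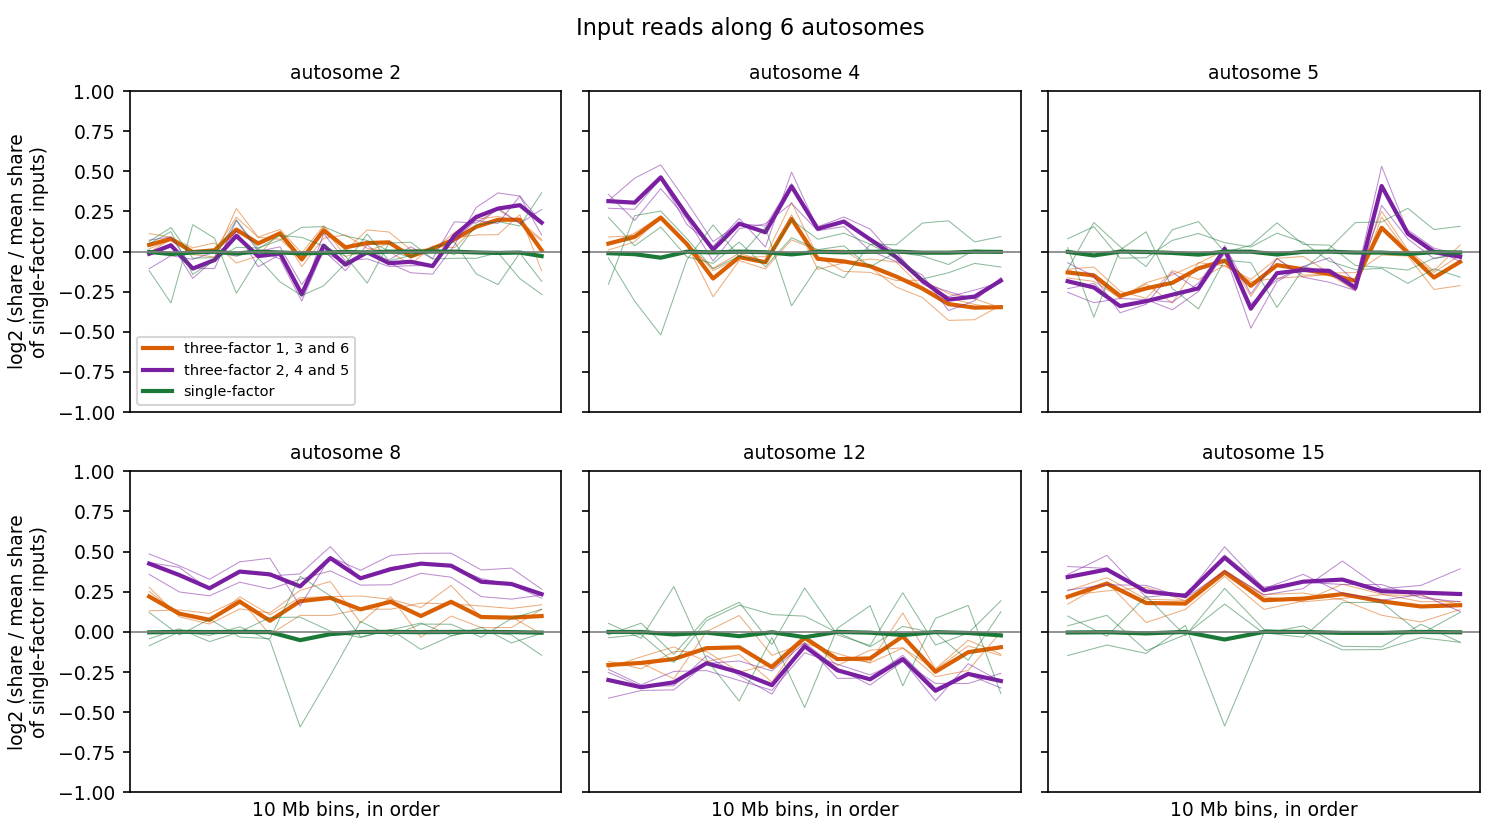
Input counts in 10 Mb bins in their order along 6 autosomes (horizontal axis), as the log2 ratio of the bin's share to the mean share of the single-factor inputs (vertical axis). Thin lines are the 9 libraries and thick lines are means of three-factor inputs 1, 3 and 6, three-factor inputs 2, 4 and 5, and single-factor inputs. In the means of both three-factor sets, chromosomes 8, 12 and 15 keep the same sign from end to end. Single libraries change sign in some bins of chromosomes 8 and 12, such as 0.10 in input 6 at 40 to 50 Mb of chromosome 12. Chromosome 4 falls from its first part to its last.

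At the scale of single regions no difference was called. Of 836 regions with enough counts, 0 had an adjusted p under 0.05 (0.0%), and the smallest adjusted p was 0.395 (edgeR). At an unadjusted p under 0.05 there were 42, against 41.8 that 5% of the tests would give, and DESeq2 also called 0. On chromosomes 8 and 15 the median log2 fold change over regions was 0.29 (56 of 77 regions higher) and 0.27 (71 of 93 higher). On chromosomes 12 and 13 it was -0.4 (12 of 13 lower) and -0.27. These medians had the sign of the autosome, which also held on the remaining autosomes except chromosomes 2, 3, 5, 16 and 19. On chromosome 5, which was called lower as a whole, the median was 0.01, with 35 of 70 regions higher. Over all 836 regions the median was 0.04.

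Among the 30199 autosomal regions of the table, the 2 with the highest mean input level were neighbours on chromosome 2, at chr2:77757143-77757404 and chr2:77828299-77828584. They were singled out after the values had been seen. The next regions on either side begin at 77679402 and 77947346, and across the 5 regions on each side the mean level was 28 to 49.5 CPM, counts relative to the autosomal total of the library, in every input. Per region, the pair held 281, 290.4 and 296 CPM in three-factor inputs 1, 3 and 6, and 36.2, 130.3 and 38.5 CPM in inputs 2, 4 and 5. With Gata4, Mef2c and Tbx5 alone it held 725, 639 and 171 CPM. Inputs 2 and 5 were at the level of their neighbouring regions (ratios of 1.04 and 1.2), input 4 at 2.81 times that level, inputs 1, 3 and 6 at 5.99 to 7.88 times, and the Gata4, Mef2c and Tbx5 alone inputs at 16.9, 14.1 and 6.11 times. Counting intervals of 4 of these levels, 1 from each step, did not overlap: 21.1 to 58 CPM for input 2, 96.7 to 171.7 for input 4, 229.9 to 341 for input 1 and 623 to 838 for Gata4 alone. The Tbx5 alone input, from 33 counts, had 118 to 240.5 CPM, which overlaps inputs 1, 4 and 6, and its ratio to the neighbours lay within the range of inputs 1, 3 and 6. Both regions moved together in every library, for example 681 and 768 CPM with Gata4 alone and 177 and 166 CPM with Tbx5 alone. Their log2 fold changes between the groups, -1.17 ± 0.87 and -1.18 ± 0.89, lay within the spread among libraries (edgeR, adjusted p = 0.881 for both).

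Each single-factor input was also set against the other 2 at all 30199 autosomal regions, which asks whether a region is raised or lowered in the input of 1 factor's cells. Fisher's exact test, adjusted over all 90597 tests, called 2 (0.00221%), and these were the 2 regions of the pair. Both were lower in the Tbx5 alone input than in the others (adjusted p = 3.98e-05 and 5.37e-06). No region was called higher in any single-factor input. At an unadjusted p under 0.05, 941, 1053 and 1228 regions were higher in the Gata4, Mef2c and Tbx5 alone inputs, and 492, 516 and 841 lower. These are out of 30199 tests per library, of which counting error alone would pass up to 5%. With 1 library set against the sum of 2 at few counts per region, higher and lower regions are not equally easy to call. The counts therefore do not single out raised or lowered regions. These tests compare single libraries, not viruses, and their p-values cover counting error only, with reads taken as independent.

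Y chromosome reads set the libraries apart in nearly the same order as the pair. Three-factor inputs 1, 3 and 6 had 7, 12 and 7 counts in the 5 regions on Y, or 37.5, 43.1 and 42.3 CPM, here of all counts in regions. Inputs 2, 4 and 5 had 0, 2 and 0 counts, and a count of 0 allows up to 3 counts, or 12.6 CPM in input 2 and 9.94 in input 5 (the upper ends of their exact 95% intervals were 15.6 and 12.2 CPM). Gata4, Mef2c and Tbx5 alone had 8, 9 and 3 counts, or 62.6, 71.9 and 30.8 CPM. The sets with more Y reads are those with more reads in the pair. These counts are small: the interval for input 1 was 15.1 to 77.2 CPM and that for input 4 was 1.25 to 37.2 CPM. The 9 libraries fall into clusters, so no correlation was computed.

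**Figure D3:**
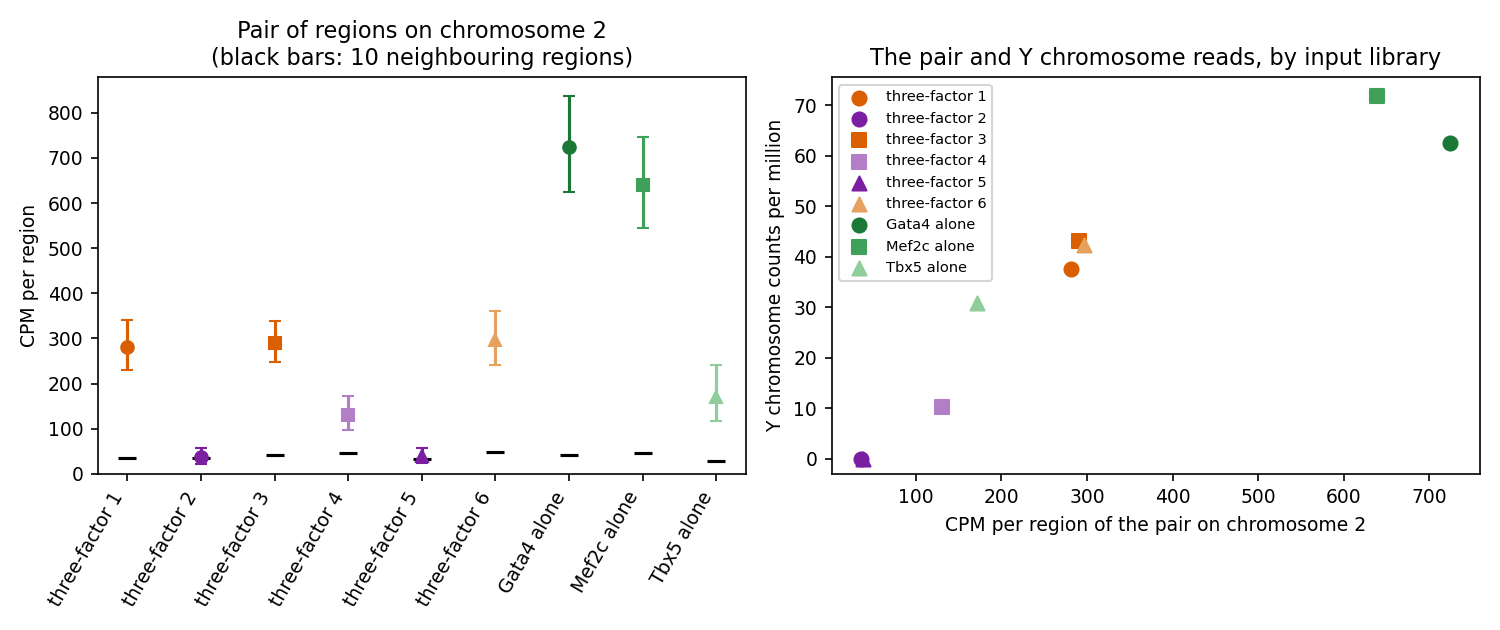
Left, CPM per region of the pair on chromosome 2 in each input library, with 95% counting intervals, and the mean of 10 neighbouring regions as black bars. Right, the same CPM (horizontal axis) against Y chromosome CPM (vertical axis): inputs 2 and 5 sit at 0 Y counts and 36.2 and 38.5 CPM, and the Gata4 and Mef2c alone inputs at the top of both axes.

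Three-factor ChIP libraries carry the same numbers as the inputs, and the order of the numbers on chromosome 8 recurred in them. The labels do not say whether libraries that share a number share a culture. There, inputs 3, 4, 5 and 2 stood at 0.16, 0.28, 0.37 and 0.42 on the log2 scale above the single-factor inputs. ChIP values here are the median over the chromosome's regions of the log2 difference from the single-factor ChIP of the same factor, less the median over all autosomal regions. Tbx5 ChIP libraries 3, 4, 5 and 2 had 0.05, 0.15, 0.19 and 0.30. Mef2c ChIP libraries had 0.09, 0.14, 0.20 and 0.44, and Gata4 ChIP libraries -0.08, 0.04, 0.11 and 0.18. The order of these 4 numbers was the same in inputs and in the ChIP of all 3 factors. Gata4 ChIP libraries 1 and 6, which exist for that factor alone, had -0.11 and -0.05 and lay with number 3, as inputs 1 and 6 did. Other chromosomes did not show this order throughout. On chromosome 15, input 3 lay below inputs 2, 4 and 5 (0.22 against 0.28 to 0.29), but Mef2c ChIP 3 (0.11) lay above 4 and 5 (0.09 and 0.08), and Gata4 ChIP 3 (0.02) above 5 (0.0047). On chromosome 12, Mef2c ChIP 3 (-0.19) lay below 4 and 5 (-0.17 and -0.18), whereas input 3 lay above both.

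At the pair on chromosome 2 and on the Y chromosome, number 3 lay above numbers 2, 4 and 5, but the rest of the order did not always recur. Relative to the neighbouring regions, number 3 had the highest pair in each ChIP, at 4.21 times for Gata4, 1.62 for Mef2c and 3.52 for Tbx5, and number 5 the lowest, at 0.486, 0.182 and 0.39 times. Among the inputs, number 2 was the lowest. Gata4 ChIP 1 and 6, at 1.92 and 1.74 times, lay nearer number 4 (1.27) than number 3, whereas inputs 1, 3 and 6 lay together. Mef2c ChIP 2 (0.862) lay above number 4 (0.423), the reverse of the inputs. Antibody enrichment changes the neighbours as well, so these ratios are not on the scale of the inputs. Y levels in CPM were 194, 138 and 209.5 in Gata4 ChIP 1, 3 and 6, against 3.59, 25.6 and 1.06 in 2, 4 and 5. In Mef2c and Tbx5 ChIP, number 3 had 11.7 and 11.6 CPM, from 14 and 11 counts. Numbers 2, 4 and 5 had 0 to 1.75 CPM, from at most 3 counts each. These intervals can overlap: that of Mef2c ChIP 2, with 0 counts, reached 9.63 CPM, and that of Mef2c ChIP 3 began at 6.42. In input and in the ChIP of each factor, number 3 stood on the same side of numbers 2, 4 and 5 in all 3 measures: lowest on chromosome 8, and highest at the pair and on Y.

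**Figure D4:**
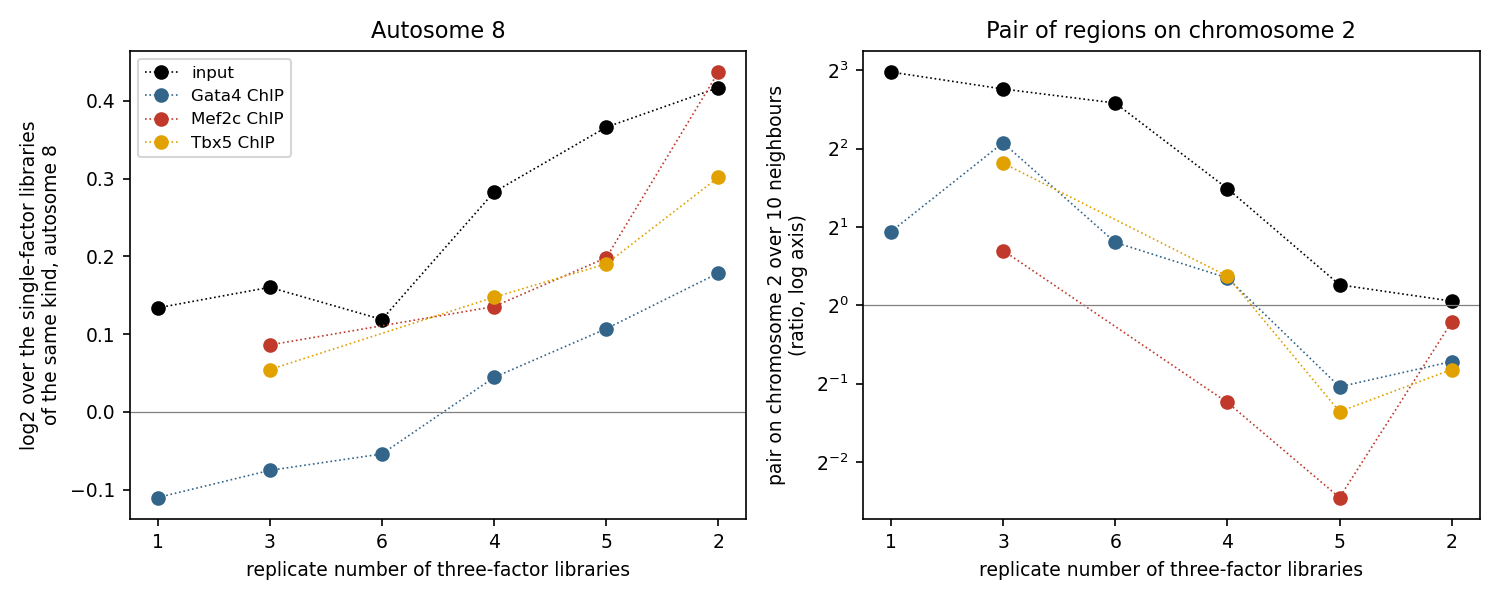
Three-factor libraries by replicate number, set out as 1, 3 and 6 and then 4, 5 and 2. Left, chromosome 8 as a log2 difference from the single-factor libraries of the same kind. Right, the ratio of the pair on chromosome 2 to its 10 neighbouring regions on a log axis. Points are single libraries of input or ChIP and dotted lines join those of a kind; numbers 4, 5 and 2 lie above number 3 on the left and below it on the right in every kind.

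On chromosomes 5, 8, 12, 13 and 15 the shift between three-factor and single-factor cells was present in ChIP reads as well, for Mef2c and Tbx5. Chromosomes 8 and 15 stood at 0.22 and 0.16 for Mef2c and 0.16 and 0.15 for Tbx5, and chromosomes 12 and 13 at -0.20 and -0.24 for Mef2c and -0.16 and -0.14 for Tbx5. Chromosome 5 stood at -0.03 for Mef2c and -0.10 for Tbx5, against -0.11 in the inputs. In these 5 chromosomes no three-factor sample of either factor (n = 4) overlapped a single-factor sample (n = 3). The exact permutation test over samples gave p = 0.0571 for each, two-sided, the smallest that 4 against 3 allow. Adjusted over the 19 autosomes of every factor together, Gata4 included, this was 0.192. Of 19 autosomes, 8 did not overlap for Mef2c (42.1%) and 8 for Tbx5 (42.1%). Among these, chromosome 19 for Mef2c (0.08, input -0.03) and chromosome 3 for Tbx5 (-0.06, input 0.02) had the opposite sign to the inputs. ChIP and input had the same sign on 13 of 19 autosomes for each of the 2 factors. Across the 19 autosomes the ChIP medians followed the input log2 fold changes with a Pearson correlation of 0.83 for Mef2c and 0.83 for Tbx5, and of 0.72 and 0.74 over the 17 left without chromosomes 8 and 15. These are descriptions over chromosomes, and chromosomes are not replicates. The labels do not say whether input and ChIP libraries came from the same cultures.

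For Gata4, 0 of 19 autosomes stood apart (0.0%), and the correlation was 0.37. The library labelled Gata4 alone number 4 weighed on this. Region by region, that ChIP library was close to the three-factor inputs (chi-square per degree of freedom 1.05 to 1.11) and the single-factor inputs (1.08 to 1.3), and far from the other 3 libraries of its group (4.64 to 6.42). In its autosome totals it was closer to the three-factor inputs: chi-square per degree of freedom was 1.92 against three-factor input 4, 5.02 to 20.5 against the other 5, and 37.7 to 42.2 against the single-factor inputs. Chromosomes 8 and 15 held 6.64 and 6.43% of its counts. On 18 of 19 autosomes it lay within the range of the three-factor inputs, and on 5 of 19 within that of the single-factor inputs. The first range spans 6 libraries and the second 3, so the 2 counts are not a like comparison. On chromosome 8, for example, these ranges were 0.12 to 0.42 and -0.02 to 0.02 on the log2 scale. That library had 0.29 there. The library had 127 CPM per region of the pair (interval 96 to 165), against 130.3 in three-factor input 4, and 4 Y counts, or 18 CPM. Without it, chromosomes 8, 15, 12 and 13 stood at 0.10, 0.07, -0.11 and -0.13 for Gata4, and the correlation across autosomes was 0.70. Chromosomes 8, 12, 13 and 15 still overlapped between the groups, and 1 autosome did not: chromosome 10, lower in ChIP at -0.10 and higher in input at 0.08. Gata4 alone ChIP number 1 also stood apart from numbers 2 and 3. Chromosomes 8 and 15 held 6.41 and 6.10% of its counts, against 5.59 and 5.35% in number 2 and 5.74 and 5.05% in number 3. Chromosomes 12 and 13 held 3.46 and 4.285% of them, against 3.87 and 4.90% in number 2 and 4.05 and 4.94% in number 3. Number 1 also had less at the pair (44 CPM per region, against 119 and 157) and on Y (45.5 CPM, against 284 and 259.5). Its part in the overlap was not tested.

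**Figure D5:**
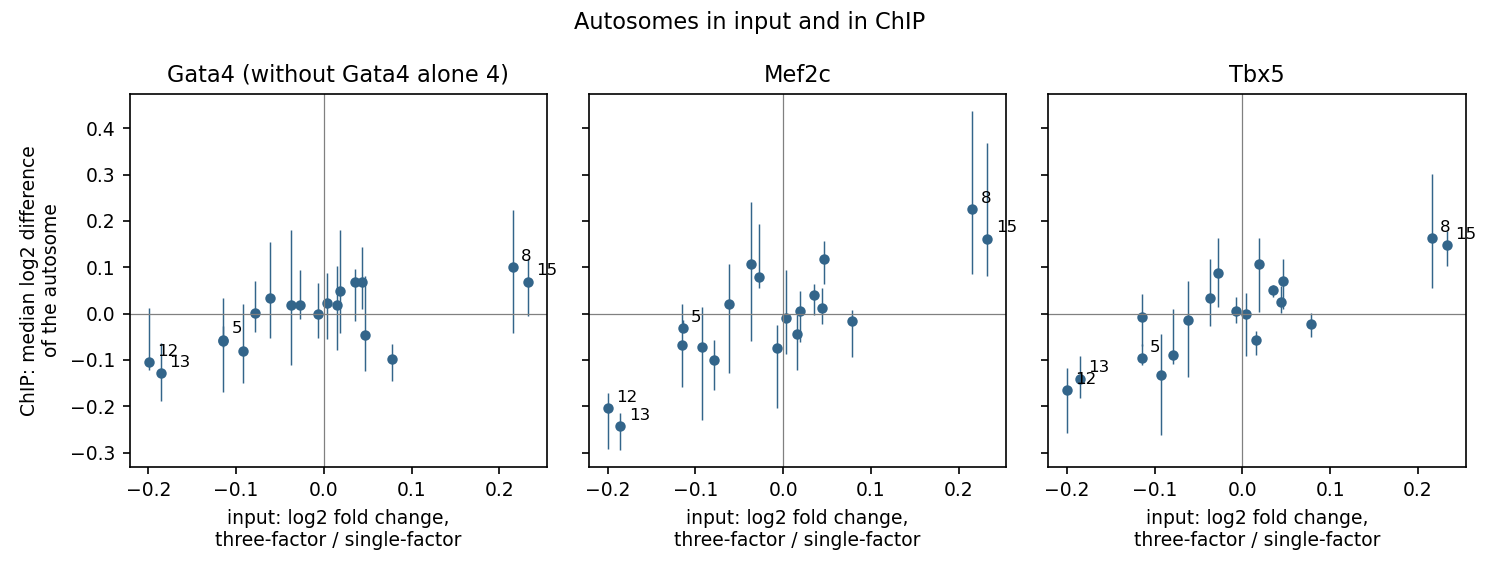
Median log2 difference of ChIP reads per autosome, three-factor against single-factor cells (vertical axis), against the input log2 fold change (horizontal axis), for each factor. Points are medians over regions of the difference between group means. Vertical lines run from the lowest to the highest three-factor sample, each with its own median. A point can therefore lie outside its line, as for Mef2c on chromosome 5 (-0.0318, line from -0.0278 to -0.0132). Chromosomes 8 and 15 lie at the upper right and 12 and 13 at the lower left in each panel; the Gata4 panel leaves out the library labelled Gata4 alone number 4.

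Input reads were more concentrated in single-factor cells, in part along with their lower depth. The 10% of regions with the most counts in a sample held 20 ± 1.7% of its reads with 3 factors and 24.3 ± 1.15% with a single factor (SD, n = 3 and 3; difference -4.21, exact permutation p = 0.1, the smallest possible). This measure rises as depth falls, and the single-factor inputs are shallower. After all libraries were thinned to 96332 counts the difference was -1.21 percentage points, with 23.7% against 24.9% over the 6 and 3 libraries (exact permutation p = 0.0238, with libraries that agree within noise counted separately). The tenth of regions strongest in three-factor Gata4 ChIP held 15 ± 0.0212% of input reads with 3 factors and 15.9 ± 0.428% with a single factor, and the groups did not overlap. For single-factor Gata4 ChIP they did overlap (13.7 ± 0.253% and 14.3 ± 0.466%). For three-factor Mef2c ChIP the shares were 12.9 ± 0.091% and 13.9 ± 0.207%, and for single-factor Mef2c ChIP 11.3 ± 0.263% and 12.1 ± 0.0852%, both without overlap. The regions strongest in Tbx5 ChIP overlapped between the groups (14.1 ± 0.583% and 14.6 ± 1.35% for three-factor ChIP, 12.6 ± 0.618% and 13 ± 1.08% for single-factor ChIP).

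The viruses, the cell population and the libraries differed together between the groups, and these cannot be told apart as sources of the differences between three-factor and single-factor inputs. The design names at least 3 biological replicates per condition, but the labels do not say which cultures the inputs were taken from, so p-values measure the spread between these libraries, which may be technical.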

How the data were processed

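Input and ChIP libraries were sequenced from a mouse cardiac fibroblast line. The authors deposited raw read counts per region for 33 libraries, and these counts are not normalised. Per the submitters' processing notes, FastQC, Bowtie2 2.2.4 and featureCounts were used on build mm9. The sources used here do not say how regions were chosen or duplicates treated. No gene was assigned and no sequence is shown, as the reference at hand is of another build. The members and lists were chosen with earlier results of these data known.

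Library pairs were compared by chi-square over regions with at least 10 counts in the pair, and libraries of a group were summed where every pair among them had p above 0.05 (complete linkage, best agreement first; single-factor inputs were never summed). edgeR 4.0.16 (R 4.3.3; quasi-likelihood F test, robust) was run on counts summed per autosome (scaled by autosomal totals, no filter), per 10 Mb bin and per region (TMM, minimum count 10, minimum total 15). A Benjamini-Hochberg adjusted p under 0.05 over all rows made a call. The SE is the fold change over the square root of F. Regions were named only if called, without overlap between groups and above the median level, and none was. The pair on chromosome 2 and the stretches were chosen after their values were seen. Permutation tests, Fisher's exact tests and intervals used scipy 1.17.1, and ChIP log2 values used CPM with 2 added. On simulated counts the autosome test made more false calls than its threshold allows, so edgeR without robust estimation was added. Alternatives included DESeq2 1.42.0, other scalings, bin sizes and filters, separate libraries, and leaving out each sample.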

Additional observations from a re-analysis of the deposited data

Results flagged for a closer look

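Reads on the Y chromosome lie outside the autosomal comparison. They exceeded the 3 counts that a count of 0 allows in 5 of the 9 input libraries: three-factor inputs 1, 3 and 6, with 7, 12 and 7 counts, and the Gata4 and Mef2c alone inputs, with 8 and 9. Inputs 2 and 5 had 0 and input 4 had 2.

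In the Mef2c ChIP of three-factor cells, library 2 stood far from the other 3 on chromosome 15, at 0.368 on the log2 scale against 0.107 for the next highest. It was also the highest on chromosome 8. It is the shallowest of its group, with 383071 counts in all. Without it the chromosome 15 median of Mef2c was 0.10, against 0.16 with it. This was 1 of 24 groups of values examined, of which chance flags about 1 in 20.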

How the results depend on the processing

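The 4 autosome calls became 7 with TMM scaling, and 7 with only three-factor inputs 1, 3 and 6 (which is also the fit without 2, 4 and 5). They became 8 with all 9 libraries separate or only inputs 1 and 3 summed. When a sample was left out there were 2 to 7 (2 without the Gata4 alone input). No count is given for only 2, 4 and 5, which form 1 three-factor sample. The 5 bins became 25 with DESeq2, 40 with all 9 libraries separate, 36 with only 1 and 3 summed and 0 with only 1, 3 and 6. They became 0 without robust estimation, 1 with X and Y included, and 3 without the 1% of regions with the highest input level. There were 0 at 5 Mb, 9 at 20 Mb, and 0 to 40 when a sample was left out. Regions called stayed at 0 under each alternative run.

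The 2 Fisher calls between single-factor inputs became 0 without the top 1% of regions, which hold the pair. The difference in concentration passed the test with 9 separate libraries (-3.41, exact permutation p = 0.0238) and after thinning (-1.21, p = 0.0238), and ran from -5.19 to -3.56 when a sample was left out.

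The share in regions strongest in Tbx5 ChIP changed direction without the Tbx5 alone input: it ran from -0.98 to 0.30 percentage points for three-factor ChIP and from -0.85 to 0.21 for single-factor ChIP when a sample was left out. For Gata4 ChIP, leaving out a library moved the median from -0.056 to 0.017 on chromosome 5, from -0.0074 to 0.10 on chromosome 8 and from -0.043 to 0.069 on chromosome 15.

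No paired analysis was possible because the single-factor inputs carry no replicate number. Bins and regions are limited by depth. Inputs 2, 4 and 5 were summed from their agreement over regions although they differ over autosomes. The added alternatives (only 1 and 3 summed, no robust estimation, thinning, ChIP without single libraries) were chosen after the data were seen. Where a count or call changed, the cause was not tested.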
